A study of Mus musculus with 8 samples.

Results

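The receptors of the EGF family and 6 of their ligands were followed gene by gene through the injured mouse cortex after photothrombotic stroke (PT). The 4 receptors were Egfr, Erbb2, Erbb3 and Erbb4, and the ligands were Hbegf, Areg, Ereg, Tgfa, Btc and Nrg1. Their names were matched to the gene symbols of the deposited matrices, which gave 10 of 21827 symbols and 11 of 21848 rows, because Nrg1 occupied an additional row that held 0 UMIs in every library. UMIs (unique molecular identifiers, each marking 1 captured RNA molecule) were taken from droplets with at least 2000 UMIs and less than 20% mitochondrial UMIs, 46216 droplets in all.

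Single-cell RNA sequencing was performed on 8 libraries, 1 per mouse, from 4 control mice given saline and 4 fibrinogen-depleted mice given ancrod, a snake venom protease that removes fibrinogen from the blood. Ancrod (2.4 U per day, with 2 mg/kg also given in the labels) or saline was delivered by a subcutaneous osmotic minipump from 2 days before PT, in which light and Rose Bengal close the vessels of a cortical area of 4 mm. All 8 mice were injured, labelled as adult females of C57Bl/6J background without any transgene or deletion, and killed 6 days after PT. Lesion and neighbouring cortex, without meninges and corpus callosum, were dissociated together, red blood cells were lysed and myelin was taken out with magnetic beads, so the libraries leave out what these steps removed. There was no sort for a cell type, and no uninjured tissue was included. No cluster was named as mature oligodendrocyte. Mice 1 to 3 of each group formed batch 1 and mouse 4 of each group formed batch 2, for both injury and sequencing.

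ERBB receptors are tyrosine kinases that pair with themselves or with each other when a ligand binds. EGFR binds TGFα, amphiregulin (Areg) and EGF, heparin-binding EGF-like growth factor (Hbegf), betacellulin (Btc) and epiregulin (Ereg) bind EGFR and ERBB4, neuregulins such as Nrg1 bind ERBB3 and ERBB4, ERBB2 has no ligand of its own and ERBB3 has little kinase activity. Most of these ligands are made as membrane proteins and released by metalloproteases (sheddases), after which the receptors signal through RAS, ERK and PI3 kinase. In the brain the family is known for roles in glial progenitors, astrocyte reactivity, interneuron wiring and repair.

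Libraries of control mice held 97861434 to 122758649 UMIs and those of ancrod mice 126682918 to 142139441, without overlap, and the median UMIs per kept droplet ranged from 10653 to 17575. Pairs of libraries shared 3 to 15 kept barcodes. After 2144 predicted doublets were removed, 44072 cells remained, and 20 cell classes were named from marker genes while 4374 cells stayed unnamed. Control mouse 3 contributed only 27 fibroblast-like cells, and ancrod mouse 4 contributed 173 of 381 neuron-like cells. Droplets predicted as doublets held 28.3% of Erbb4, 25.7% of Areg and 25.1% of Btc UMIs, against 6.85% of all UMIs, so class levels of these 3 genes leave out more of their signal than those of the other members.

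The 10 genes lie on 7 chromosomes of GRCm39, the build named in the submitters' processing notes, and positions were taken from its annotation. Ereg (chr5:91222157-91241505, plus strand), Areg (chr5:91287451-91296291, plus strand) and Btc (chr5:91505120-91550883, minus strand) are neighbours, with 45.95 kb between Ereg and Areg and 208.8 kb between Areg and Btc. Egfr (chr11:16702198-16868158, plus strand) shares its chromosome with Erbb2 (chr11:98303203-98328542, plus strand), and Erbb3 lies at chr10:128403392-128425811 on the minus strand. Tgfa lies at chr6:86172041-86252728 on the plus strand. The genes of Erbb4 (chr1:68071345-69147619, minus strand) and Nrg1 (chr8:32303906-33374825, minus strand) are the longest, at 1076 and 1071 kb. UMIs were counted over whole genes from 3′ tags, and levels are therefore compared between classes and mice for 1 gene at a time, not between genes.

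Levels are given as CPM, the UMIs of a gene per 1000000 UMIs of that cell class in that mouse, for mice with at least 10 cells of the class. Because the classes were the units over which levels were described, their order is given without a test. Shares of cells with a UMI are those that thinning each cell of at least 5000 UMIs to 5000 leaves on average. Cells with fewer UMIs are left out, and the unthinned share of all cells stands beside them. Microglia-like cells (median 15415 UMIs) serve as the class low in a receptor, except where another class is named.

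**Figure D1:**
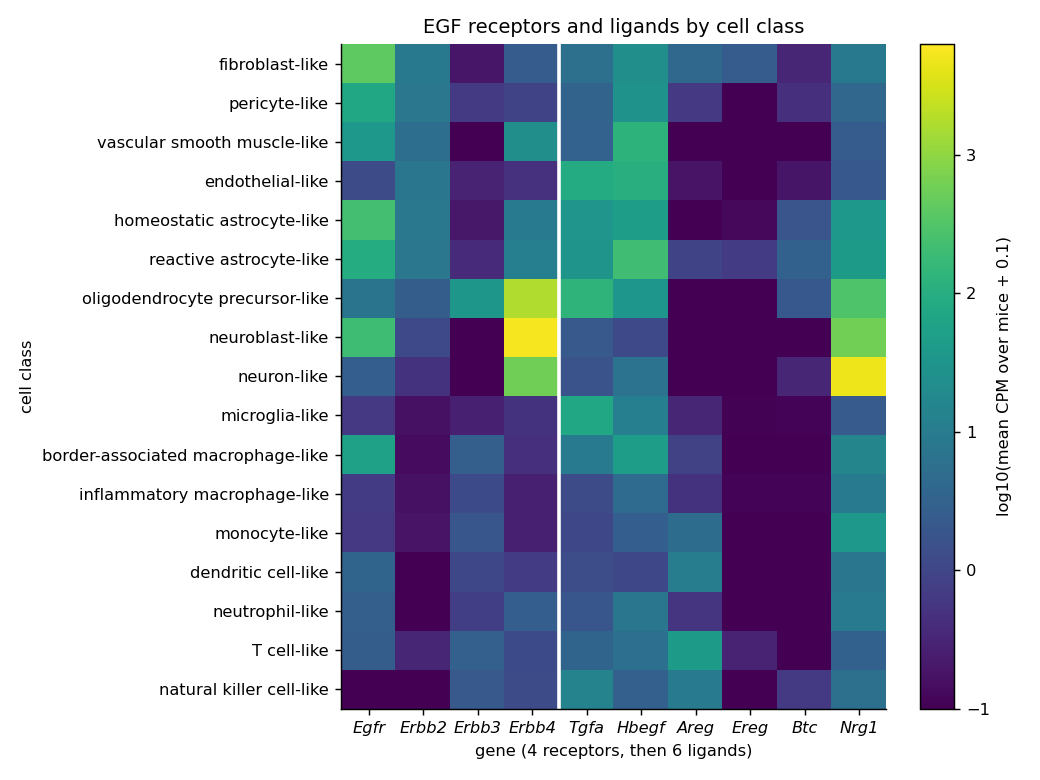
Heat map of the mean level of each member (columns) in each cell class (rows), as log10 of CPM plus 0.1 averaged over mice with at least 10 cells of the class. Lighter colours mark higher levels. They are seen for Egfr in fibroblast-like and homeostatic astrocyte-like cells and for Erbb3 in oligodendrocyte precursor-like cells. Erbb4 is light in neuroblast-like and oligodendrocyte precursor-like cells, and Nrg1 in neuron-like cells.

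Egfr, the receptor for EGF, TGFα and amphiregulin, was a gene of fibroblast-like cells and astrocyte-like cells. Fibroblast-like cells held 36416 of its 49860 UMIs in cells (73.0%), and homeostatic astrocyte-like cells held 17.0%. In fibroblast-like cells Egfr stood at 413, 393, 634 and 397 CPM in control mice 1 to 4 and at 342, 311, 362 and 339 CPM in ancrod mice 1 to 4. Every ancrod mouse lay below every control mouse, as for 433 of the 12770 genes tested in this class (3.39%, and 6.54% in either direction), and the highest value came from control mouse 3 with its 27 cells. Homeostatic astrocyte-like cells had 218, 269, 217 and 254 CPM in control mice and 225, 237, 223 and 231 CPM in ancrod mice, so that the ancrod values lay inside the control range. The ranges of these classes did not meet in any of the 8 mice.

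Next among the classes measured in all 8 mice came reactive astrocyte-like cells with a mean of 94.1 CPM (71.4 to 111). Pericyte-like cells had 70.7 CPM (48.4 to 94.1) and border-associated macrophage-like cells 55.5 CPM (34.4 to 111), and the ranges of these 3 classes overlapped. Neuroblast-like cells could be measured in 3 mice and varied between 16.0 and 552 CPM. Endothelial-like cells (1.16 CPM) and microglia-like cells (0.517 CPM) were the low end among large classes. A UMI for Egfr was expected in 67.3% of thinned fibroblast-like cells (90.4% unthinned, median 42117.5 UMIs) and in 63.3% of homeostatic astrocyte-like cells (85.2% unthinned, median 13847 UMIs), against 0.279% of microglia-like cells (0.836% unthinned). Free RNA, read from droplets with at most 100 UMIs, contained Egfr at a median of 42.2 CPM (11.1 to 72.4), which is above the level in endothelial-like and microglia-like cells.

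**Figure D2:**
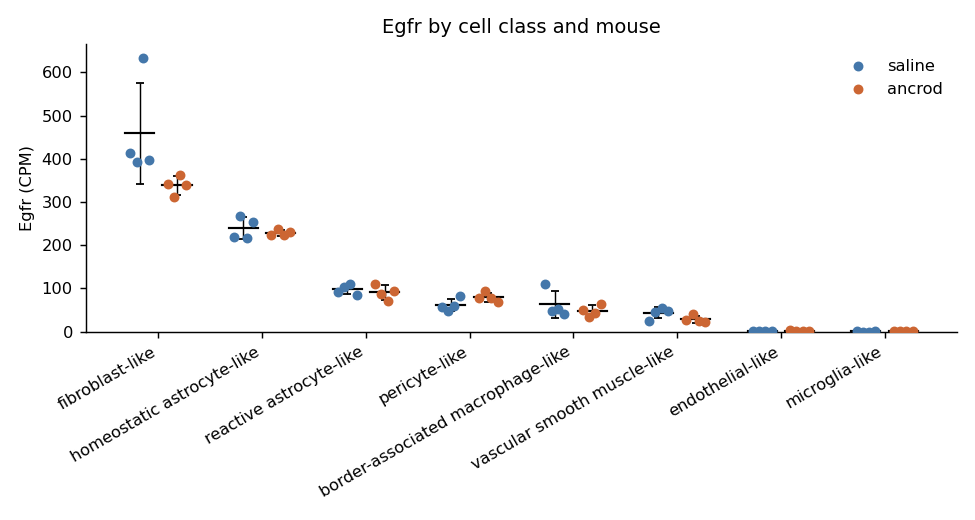
Egfr level in CPM on a linear axis for each mouse (points, control and ancrod, with mean and SD) in the 8 classes where it was tested, ordered by mean. Neuroblast-like cells are not drawn. Fibroblast-like cells lie between 311 and 634 CPM and homeostatic astrocyte-like cells between 217 and 269 CPM, with microglia-like cells lowest at a mean of 0.517 CPM.

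Within these classes Egfr was uneven between clusters, which are described by their leading genes. Among fibroblast-like clusters, Egfr averaged 633 CPM (548.8 to 705, 5 mice) in the cluster led by Penk, Ccn3 and Slc4a10, and 480.2 CPM (235 to 755, 7 mice) in the cluster led by Col1a1, Col8a1 and Col1a2, genes of collagen matrix. The cluster led by Ube2c, H1f5 and Pclaf, genes of dividing cells, averaged 288 CPM (214 to 440 CPM), and the largest cluster, led by Cemip, Col18a1 and Apod, averaged 196 CPM (151 to 252). A small cluster of 61 cells led by Mmp3, Mdk and Lum had 26.9 CPM over 2 mice. Among homeostatic astrocyte-like clusters the means ran from 171 CPM (led by Clu and Aldoc) through 272 CPM to 388 CPM, and among reactive ones from 49.5 CPM, in the cluster led by Mt3 and Aldoc, to 114 CPM, in that led by Myoc and Fabp7. The Mt3 cluster stood apart by its low depth, at 0.27 of the median UMIs of its libraries, and makes up 1439 of 2024 reactive astrocyte-like cells.

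Cluster makeup of the fibroblast-like cells varied between mice. The Penk cluster held 7 of 222, 7 of 169, 9 of 27 and 46 of 234 cells in control mice 1 to 4 and 65 of 342, 28 of 112, 108 of 627 and 82 of 509 in ancrod mice 1 to 4, and the groups overlapped in its share. Within the Col1a1 cluster Egfr was 631 ± 109 CPM in 3 control mice and 367 ± 103 CPM in 4 ancrod mice (mean ± SD), and within the dividing cluster it was 345 ± 84.5 and 245 ± 35.9 CPM. Within the Cemip cluster it was 202 ± 50.0 and 192 ± 11.4 CPM. These cluster values were described only and no test was run on them.

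**Figure D3:**
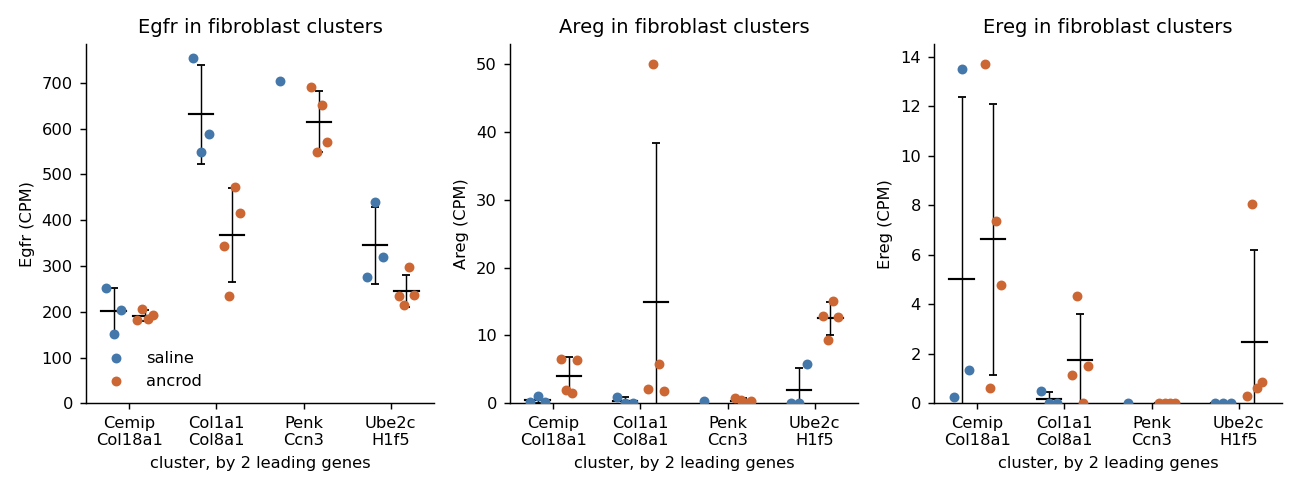
Levels in CPM of Egfr, Areg and Ereg in the clusters of fibroblast-like cells, with 1 point per mouse, control and ancrod, for mice with at least 10 cells of the cluster. Egfr is highest in the Penk cluster (mean 633 CPM) and Ereg in the Cemip cluster (mean 5.94 CPM). Areg is mostly seen in ancrod mice, but it passed the filter on low counts in this class through ancrod mice alone. This separation of Areg is therefore not used as support.

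Erbb2, the partner receptor that binds no ligand, was spread over several classes of the vessel wall and glia at close levels. Mean CPM was 8.78 in fibroblast-like, 8.15 in homeostatic astrocyte-like, 8.07 in pericyte-like, 7.89 in reactive astrocyte-like and 7.58 in endothelial-like cells, and these neighbours overlapped from mouse to mouse. Endothelial-like and fibroblast-like cells held 920 and 919 of its 2647 UMIs. Per mouse, fibroblast-like cells had 9.22, 9.12, 5.70 and 8.50 CPM in control mice and 8.91, 10.1, 8.83 and 9.86 CPM in ancrod mice. Microglia-like cells lay at 0.0609 CPM. At 5000 UMIs per cell, 4.05% of fibroblast-like cells (30.2% unthinned) and 3.66% of endothelial-like cells (11.8% unthinned) were expected to show a UMI, against 0.0295% of microglia-like cells (0.105% unthinned).

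Erbb3, which binds neuregulins, was highest in oligodendrocyte precursor-like cells. Control mice had 25.8, 49.2, 24.6 and 25.8 CPM there, and ancrod mice 1, 3 and 4 had 48.2, 24.7 and 39.4 CPM, while ancrod mouse 2 had fewer than 10 such cells. These cells held 98 of 459 UMIs (21.4%) although they number 139 of 44072 cells. The rest was thinly spread, with 17.6% of UMIs in inflammatory macrophage-like cells at a mean of 1.08 CPM. At 5000 UMIs, 15.7% of oligodendrocyte precursor-like cells (35.2% unthinned, median 17966 UMIs) and 0.0448% of microglia-like cells (0.166% unthinned) were expected to show a UMI.

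Erbb4, a neuregulin receptor of interneurons and their migrating precursors, belonged to neural cells. Oligodendrocyte precursor-like cells had 1641, 2094, 1428 and 1408 CPM in control mice and 1617, 1627 and 2148 CPM in ancrod mice 1, 3 and 4. Neuroblast-like cells, with at least 10 cells in 3 mice, reached 6222 and 1104 CPM in control mice 2 and 4 and 8659 CPM in ancrod mouse 1. Oligodendrocyte precursor-like cells held 34.2%, neuroblast-like cells 32.1% and neuron-like cells 23.9% of Erbb4 UMIs, from 139, 56 and 381 cells.

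Neuron-like cells were uneven in Erbb4. Ancrod mouse 1 had 2117 CPM, whereas ancrod mice 2, 3 and 4 had 35.4, 6.67 and 35.4 CPM and control mice 2 and 4 had 321 and 976 CPM. Only 4.16% of neuron-like cells (5.17% unthinned) were expected to show a UMI at 5000 UMIs, against 89.9% of oligodendrocyte precursor-like cells (91.5% unthinned) and 0.220% of microglia-like cells (0.664% unthinned). Of the neuron-like clusters with at least 10 cells in a mouse, that led by Dpp10, Galntl6 and Adarb2 had 295 CPM in ancrod mouse 4, the only mouse measured. The cluster led by Nrgn, Snap25 and Cck had 616 CPM in the 10 cells of ancrod mouse 1 and 0 CPM in ancrod mice 2 and 3, and the other 5 clusters averaged at most 2.91 CPM. Pooled over all mice, the Dpp10, Galntl6 and Adarb2 cluster had 1795 CPM in 48 cells and the Nrgn cluster 222 CPM in 49 cells. A further neuron-like cluster of 7 cells, too small to be measured in any mouse, had 1665 CPM when pooled.

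Among the ligands, Tgfa, an EGFR ligand made as a membrane protein, was found in microglia-like, endothelial-like and oligodendrocyte precursor-like cells. Microglia-like cells held 22072 of 37564 UMIs (58.8%) and endothelial-like cells 28.2%. Levels in microglia-like cells were 91.9, 71.4, 64.6 and 86.0 CPM in control mice and 68.0, 71.0, 74.8 and 65.6 CPM in ancrod mice, and the groups overlapped. Endothelial-like cells had 92.2, 89.5, 94.7 and 82.0 CPM in control mice and 90.3, 90.9, 87.3 and 81.0 CPM in ancrod mice, the smallest spread between mice of these classes. Oligodendrocyte precursor-like cells had a mean of 130.7 CPM, with 124, 153, 144 and 119 CPM in control mice and 133, 126 and 118 CPM in ancrod mice 1, 3 and 4.

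At 5000 UMIs, a Tgfa UMI was expected in 45.5% of oligodendrocyte precursor-like, 34.1% of endothelial-like and 30.3% of microglia-like cells (76.3%, 59.2% and 60.8% unthinned). The share was 0.517% in inflammatory macrophage-like cells (2.48% unthinned, median 27278.5 UMIs), the myeloid class used here as low in Tgfa. Microglia-like clusters ranged from 37.0 CPM (26.6 to 46.1), in the cluster led by the dividing-cell genes Mki67 and Top2a, to 118 CPM (71.3 to 143), in the cluster led by P3h2, Csmd3 and Pag1. Clusters led by the inflammatory genes Olr1 and Tnf (42.4 CPM) and by Cd5l and Igf1 (51.4 CPM) were also at the low end, and their ranges over mice did not meet that of the Csmd3, P3h2 and Pag1 cluster.

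Hbegf, a membrane-anchored ligand of EGFR and ERBB4, was highest in reactive astrocyte-like cells, vascular smooth muscle-like cells and endothelial-like cells. Reactive astrocyte-like cells had 172, 236, 215 and 195 CPM in control mice and 286, 155, 253 and 171 CPM in ancrod mice. In vascular smooth muscle-like cells the values were 72.2, 163, 122 and 120.4 CPM in control mice and 223, 85.9, 93.5 and 153 CPM in ancrod mice. Both classes varied more among ancrod mice than among control mice, and the groups overlapped in each.

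Endothelial-like cells averaged 100.1 CPM (60.9 to 137) and, being numerous, held 40.1% of the 29834 Hbegf UMIs. Reactive astrocyte-like cells held 19.5% and microglia-like cells, at 11.6 CPM, held 11.8%. Border-associated macrophage-like cells averaged 49.2 CPM and homeostatic astrocyte-like cells 47.6 CPM. At 5000 UMIs, 40.0% of vascular smooth muscle-like, 30.9% of reactive astrocyte-like and 30.9% of endothelial-like cells (61.9%, 34.9% and 50.7% unthinned) were expected to show a UMI, against 4.97% of microglia-like cells (11.0% unthinned). Reactive astrocyte-like cells had a median of 4671.5 UMIs, so many of them were left out of that share. Thinned to 2000 UMIs, theirs was 15.6%. Among reactive clusters Hbegf averaged 123 CPM in the low-depth Mt3 cluster, 236 CPM in the Myoc cluster and 244 CPM in the cluster led by Ckap2 and Fabp7.

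Areg, the EGFR ligand amphiregulin, was rare and came in few cells. Only 334 droplets held any of its 1753 UMIs. T cell-like cells had the highest mean, 41.2 CPM, with 0, 11.0, 114 and 12.9 CPM in control mice and 0, 45.1, 30.1 and 116 CPM in ancrod mice, a spread as wide within each group as between them. Of the 4 T cell-like clusters with at least 10 cells in some mouse, 1 of 65 cells in 5 mice held 90 UMIs and 1 of 21 cells in 2 mice held 9 UMIs. The former averaged 168 CPM, with 15.5 to 450 CPM in control and 0 to 349 CPM in ancrod mice. The clusters of 108 cells in 6 mice and of 27 cells in 2 mice held 0. Dendritic cell-like cells averaged 10.2 CPM (2.84 to 20.5).

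Fibroblast-like cells held the largest part of Areg, 442 of 1302 UMIs (33.9%). Here the control mice had 0.576, 0.421, 0 and 0.841 CPM and the ancrod mice had 5.38, 13.7, 3.98 and 5.75 CPM. The counts behind these levels were 4, 3, 0 and 9 UMIs in control mice and 93, 88, 105 and 140 UMIs in ancrod mice. All ancrod values lay above all control values. Areg passed the filter on low counts in this class through ancrod mice alone, so this separation was fixed by the filter and is not used as support. Free RNA contained Areg at 0.705, 1.29, 5.88 and 1.29 CPM in control libraries, above the class level in each, and at 0.759, 8.02, 2.47 and 3.18 CPM in ancrod libraries, below it in each. The part of free RNA in these levels was not tested. By cluster, in 4 ancrod and 3 control mice, Areg averaged 12.5 ± 2.38 and 1.92 ± 3.32 CPM in the dividing cluster and 4.10 ± 2.75 and 0.52 ± 0.52 CPM in the Cemip cluster. In the Col1a1 cluster it averaged 14.9 ± 23.5 and 0.33 ± 0.57 CPM, where ancrod mouse 2 had 50.1 CPM from 69 UMIs in 22 cells and the other ancrod mice had 1.85 to 5.77 CPM. In the Penk cluster it was 0.41 CPM in ancrod mice and 0.39 CPM in the 1 control mouse measured.

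Ereg, the epiregulin gene next to Areg, was mostly found in fibroblast-like cells, which held 276 of 302 UMIs (91.4%). The control mice had 0.288, 5.05, 0 and 0.654 CPM, from 2, 36, 0 and 7 UMIs, and the ancrod mice had 4.98, 3.11, 3.15 and 1.73 CPM, from 86, 20, 83 and 42 UMIs. Control mouse 2 was the highest of the 8, and the groups overlapped. The Cemip cluster contained 229 of these UMIs and the Penk cluster 0.

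Btc, betacellulin, was the least abundant member by UMIs, at 267 UMIs in 166 droplets. Reactive astrocyte-like cells held 92 and homeostatic astrocyte-like cells 31.0% of its 200 UMIs in cells. Reactive astrocyte-like cells had 3.06, 2.07, 0.666 and 2.47 CPM in control mice and 6.09, 2.18, 4.34 and 3.15 CPM in ancrod mice, and the groups overlapped. Homeostatic astrocyte-like cells averaged 1.73 CPM.

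Nrg1, a neuregulin that signals through ERBB3 and ERBB4, was mainly a gene of neuron-like cells, which held 80.4% of its 51721 UMIs. Mice with at least 10 such cells had 5283 and 5268 CPM (control mice 2 and 4) and 4566, 3966, 4121 and 4999 CPM (ancrod mice 1 to 4). A UMI was expected in 97.9% of neuron-like cells at 5000 UMIs (98.5% unthinned), against 1.23% of microglia-like cells (3.68% unthinned). Ependymal-like cells reached 704 and 776 CPM in the 2 mice measured, and oligodendrocyte precursor-like cells had 206, 244, 197 and 220.3 CPM in control mice against 81.9, 581 and 548 CPM in ancrod mice 1, 3 and 4. Monocyte-like and reactive astrocyte-like cells averaged 36.5 and 41.5 CPM, below the median of free RNA (99.8 CPM), which ran from 32.3 to 509 CPM over the libraries. Pooled over mice, the monocyte-like cluster had 43.5 CPM and the inflammatory macrophage-like cluster 10.3 CPM. The part of free RNA in these levels was not tested.

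The question of the study's design, whether fibrinogen depletion changed these genes, was addressed over mice with edgeR's quasi-likelihood test, in which p-values were adjusted by the Benjamini-Hochberg method over all genes tested. Each log2 fold change is ancrod over control and is given with its standard error (SE). In the whole tissue, which sums all kept droplets of a mouse, 2 of 16275 genes passed an adjusted p of 0.05 (0.0123%), with 3239 at an unadjusted p below 0.05 and 1316 called by DESeq2. Of the 10 members 1 passed, 4 were below 0.05 unadjusted, and 1 was called by DESeq2. The CPM of the groups did not overlap for 3 of the 10 members (Tgfa, Nrg1 and Ereg), beside 1737 of the 16275 genes (10.7%, with 5.77% higher and 4.9% lower in ancrod mice). In whole tissue, fewer cells of a type and less RNA per cell cannot be told apart.

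The member that passed was Tgfa, which fell in ancrod mice. It was 59.3, 54.3, 53.0 and 55.3 CPM in control mice and 39.6, 40.6, 38.5 and 38.6 CPM in ancrod mice, a mean of 55.5 ± 2.72 against 39.3 ± 1.00 CPM (SD, n = 4 each). On the log2 scale it fell by 0.53 with an SE of 0.048 (adjusted p = 0.0329 in edgeR). The other gene past the threshold was Atp8a2 (−0.54), a phospholipid flippase gene that was named after its values were seen. Atp8a2 was also among the leading genes of several microglia-like clusters, including the P3h2 cluster, which was highest in Tgfa. Leaving out any of the 8 mice ended the call for Tgfa, with an adjusted p of 0.093 to 0.285 and a log2 fold change of −0.55 to −0.52, and batch 1 alone gave an adjusted p of 0.172.

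The fall was smaller in the 2 classes that held most Tgfa UMIs. In microglia-like cells the log2 fold change was −0.12 (SE 0.091, adjusted p = 0.959 in edgeR), a test added after the levels were seen. Ancrod mice gave 680 of the 2439 cells of the microglia-like cluster highest in Tgfa, led by P3h2. They gave 835 of 1713 in the Olr1 cluster and 526 of 1183 in the Cd5l cluster, both low in Tgfa. These counts were pooled over mice. Microglia-like cells as a whole were 42.3 ± 1.82% of cells in control and 35.5 ± 6.10% in ancrod mice. Within the P3h2 cluster Tgfa averaged 131 ± 11.5 CPM in control and 105 ± 24.8 CPM in ancrod mice. It was 43.7 ± 3.15 and 41.2 ± 2.87 CPM in the Olr1 cluster and 49.7 ± 6.51 and 53.2 ± 3.66 CPM in the Cd5l cluster. No test was run on these cluster values. Endothelial-like cells gave −0.03 (SE 0.075, adjusted p = 0.876) and oligodendrocyte precursor-like cells −0.09 (SE 0.20, adjusted p = 0.978) in edgeR. Over the 8 classes tested, Tgfa was lower in ancrod mice in 7 and higher in 1, from −0.76 in fibroblast-like (SE 0.31, adjusted p = 0.384 in edgeR) to 0.03 in homeostatic astrocyte-like cells. Fibroblast-like cells held 536 of the 37564 UMIs, at 7.15 ± 2.44 CPM in control and 4.47 ± 1.59 CPM in ancrod mice, where the groups overlapped and free RNA stood at 21.3 to 53.6 CPM. Microglia-like and endothelial-like cells together gave 61.3 ± 5.16% of a control mouse's UMIs (55.8% to 66.6%) and 44.6 ± 2.09% of an ancrod mouse's UMIs (42.1% to 47.0%), ranges that did not overlap. What part this makeup has in the whole-tissue value was not tested.

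**Figure D4:**
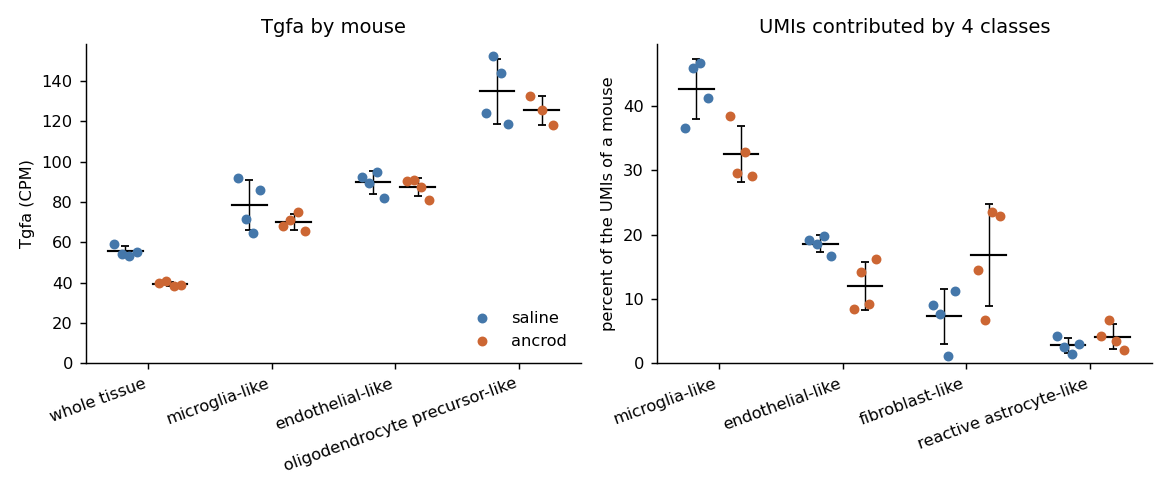
Tgfa level in CPM for each control and ancrod mouse in whole tissue and in microglia-like, endothelial-like and oligodendrocyte precursor-like cells. Beside it stands the percent of each mouse's UMIs from microglia-like, endothelial-like, fibroblast-like and reactive astrocyte-like cells, each class drawn apart. The ancrod mice lie below the control mice in whole tissue (38.5 to 40.6 against 53.0 to 59.3 CPM) and overlap them within each class shown. In UMI share the groups do not overlap for endothelial-like cells (16.7% to 19.9% in control, 8.49% to 16.2% in ancrod mice). They overlap for microglia-like cells (36.7% to 46.8% in control, 29.1% to 38.5% in ancrod mice) and for fibroblast-like cells (1.19% to 11.3% and 6.73% to 23.5%).

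The other 5 ligands and the 4 receptors did not pass the threshold in whole tissue. Nrg1 was 22.4, 40.2, 11.0 and 53.0 CPM in control mice and 54.0, 63.9, 60.7 and 197 CPM in ancrod mice, without overlap (log2 fold change 1.54 with SE 0.58, adjusted p = 0.208 in edgeR). Ereg was 0.0244, 0.357, 0 and 0.0986 CPM in control mice and 0.741, 0.411, 0.920 and 0.406 CPM in ancrod mice, also without overlap (2.31, 0.95 and 0.235). For Areg the means were 1.25 ± 0.71 and 2.72 ± 1.02 CPM (log2 fold change 1.07 with SE 0.45, adjusted p = 0.242).

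For Btc the log2 fold change was 1.27 (SE 0.59, adjusted p = 0.282) and 0.73 without ancrod mouse 2, and for Hbegf it was 0.09 (0.18 and 0.801). Egfr varied widely among control mice, with 73.1, 42.7, 17.6 and 58.3 CPM against 63.9, 59.9, 97.8 and 90.6 CPM in ancrod mice (0.70, 0.37 and 0.328). Control mouse 3, the lowest, is the mouse with 27 fibroblast-like cells, and without it the Egfr log2 fold change was 0.44. Without control mouse 2 that of Ereg was 3.88. Erbb2, Erbb3 and Erbb4 had log2 fold changes of 0.23, −0.03 and −0.17, with SEs of 0.17, 0.24 and 0.48 and adjusted p from 0.476 to 0.958 in edgeR.

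**Figure D5:**
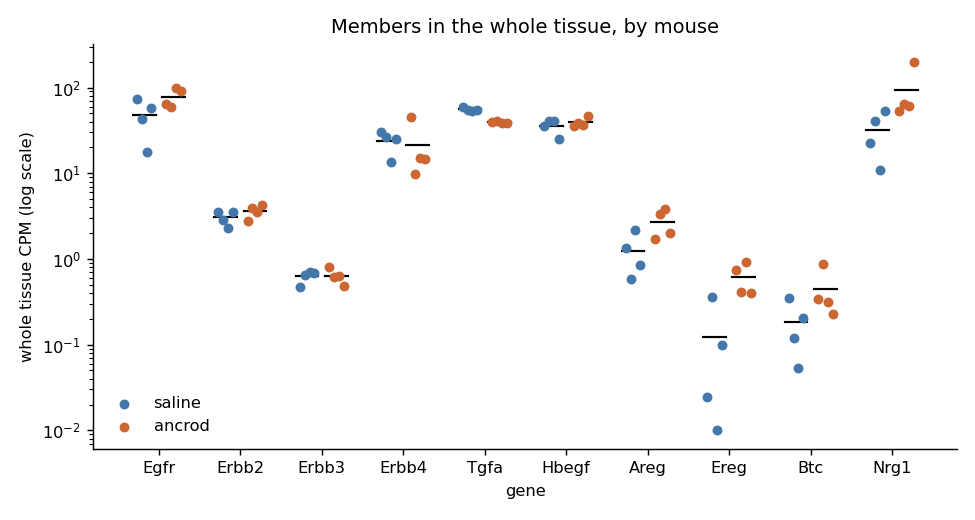
Whole-tissue level in CPM, on a log axis, of each member in the 4 control and 4 ancrod mice (points, 1 per mouse), where a level of 0 is drawn at 0.01 CPM. The groups do not overlap for 3 members, as for 10.7% of all genes tested, namely Tgfa (38.5 to 40.6 against 53.0 to 59.3 CPM), Nrg1 and Ereg, and they overlap for the other 7 members.

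Cell class shares were compared for 7 classes, and 0 passed an adjusted p of 0.05. Endothelial-like cells were 21.0 ± 1.60% of cells in control and 11.2 ± 4.21% in ancrod mice, reactive astrocyte-like cells 2.73 ± 0.987% and 6.41 ± 3.15%, and neuron-like cells 0.305 ± 0.182% and 1.51 ± 1.37%. Each of the 3 had an exact two-sided permutation p of 0.0286, the smallest that 4 against 4 mice can give, and an adjusted p of 0.0667 over 7 classes. Microglia-like cells were 42.3 ± 1.82% and 35.5 ± 6.10% of cells (exact permutation p = 0.0857), and fibroblast-like cells 3.02 ± 1.79% and 7.30 ± 4.12% (exact permutation p = 0.143). In ancrod mouse 2 the low-depth Mt3 cluster made up 513 of 616 reactive astrocyte-like cells. On the markers that split astrocyte-like clusters, the Mt3 cluster scored 0.63 as reactive and 0.52 as homeostatic (0.58 and 0.54 at Leiden resolution 1). Cell numbers of the other reactive clusters overlapped between groups. The Myoc cluster had 41, 35, 15 and 31 cells in control and 50, 55, 43 and 34 in ancrod mice. The Ckap2 cluster had 22, 20, 21 and 22 cells in control and 67, 48, 70 and 11 in ancrod mice. For higher shares of fibroblasts and macrophages after ancrod, the study's methods name easier dissociation as a likely reason, which was not tested here. Oligodendrocyte precursor-like cells (0.321% and 0.316%) and T cell-like cells (0.926% and 0.918%) gave an exact permutation p of 1 and 0.83. In whole tissue, Nrg1 went with neuron-like cells, of which ancrod mouse 4 had the largest share (3.55%) and the highest Nrg1. Without ancrod mouse 4 the Nrg1 log2 fold change was 0.89, and the part of cell makeup in it was not tested.

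Within classes, 52 pairs of a member and a class could be tested, and edgeR called 0 of them at an adjusted p of 0.05. At an unadjusted p below 0.05 there were 12, and DESeq2 called 3. Both counts include Areg in fibroblast-like cells, which passed the filter on low counts through ancrod mice alone. Counts over all genes follow by class and are not given for pericyte-like, monocyte-like and border-associated macrophage-like cells. Over all genes in edgeR, fibroblast-like cells gave 1 of 12770 (0.00783%, 1558 at an unadjusted p below 0.05, 60 by DESeq2) and microglia-like cells 1 of 13133 (0.00761%, 532 and 2). The gene called in microglia-like cells was Cplx2, named after its values were seen. Endothelial-like cells gave 0 of 12691 (0%, 1154 and 24), homeostatic astrocyte-like cells 0 of 11385 (0%, 544 and 3) and reactive astrocyte-like cells 0 of 11579 (0%, 486 and 3). Oligodendrocyte precursor-like cells gave 0 of 7537 (0%, 446 and 3), dendritic cell-like cells 0 of 8577 (0%, 519 and 10), T cell-like cells 0 of 6691 (0%, 297 and 0) and vascular smooth muscle-like cells 0 of 5082 (0%, 279 and 0).

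Among receptors, Egfr in fibroblast-like cells was 459 ± 117 CPM in control and 338 ± 21.2 CPM in ancrod mice (log2 fold change −0.43 with SE 0.16, adjusted p = 0.364 in edgeR). Without control mouse 3 the log2 fold change was −0.23 (SE 0.0899, adjusted p = 0.315), and the groups still did not overlap. In homeostatic astrocyte-like cells Egfr was 239.6 ± 26.0 and 229 ± 6.51 CPM (log2 fold change −0.05, adjusted p = 1.00). Erbb2 gave 0.15 (SE 0.15, adjusted p = 0.718) in fibroblast-like and −0.06 (SE 0.22, adjusted p = 1.00) in homeostatic astrocyte-like cells. In oligodendrocyte precursor-like cells, over 4 control and 3 ancrod mice, Erbb3 gave 0.17 (SE 0.37, adjusted p = 0.978) and Erbb4 0.14 (SE 0.21, adjusted p = 0.961).

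Across all the classes in which it could be tested, Egfr was higher in ancrod mice in 3 and lower in 5 of 8 classes, with log2 fold changes from −0.60 in vascular smooth muscle-like to 1.74 in endothelial-like cells. The endothelial-like value rests on levels of 0.343 to 0.755 CPM in control and 0.388 to 4.54 CPM in ancrod mice, below free RNA in every library. Pericyte-like cells had 57.1, 48.4, 58.6 and 83.0 CPM in control and 77.2, 94.1, 77.9 and 69.5 CPM in ancrod mice, which overlapped. Erbb2 was higher in 1 and lower in 3 of 4 classes (−0.22 to 0.15), and Erbb3 higher in 1 and lower in 1 of 2 (0.00 and 0.17). Erbb4 was higher in 3 and lower in 2 of 5 classes, from −0.81 in reactive astrocyte-like (SE 0.78, adjusted p = 0.993 in edgeR) to 2.86 in fibroblast-like cells (SE 1.00, adjusted p = 0.351). Fibroblast-like cells had Erbb4 at 0 to 1.12 CPM in control and 0.311 to 11.9 CPM in ancrod mice, each below the free RNA of its library.

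Among ligands, Areg in fibroblast-like cells averaged 0.46 ± 0.35 CPM in control and 7.19 ± 4.38 CPM in ancrod mice, from 16 and 426 UMIs. Of the 52 pairs it was the 1 that passed the filter on low counts through ancrod mice alone, since 0 of 4 control mice reached its minimum of 1.12 CPM and 4 of 4 ancrod mice did. A gene kept in this way had to differ, so the separation of its groups, its fold change and its tests (not called by edgeR, called by DESeq2) are not used as support. Areg in T cell-like cells gave 0.25 (SE 0.91, adjusted p = 0.994) and in dendritic cell-like cells −0.33 (0.48 and 0.981). Ereg in fibroblast-like cells gave 0.86 (SE 0.75, adjusted p = 0.664), with 2.80 without control mouse 2, which had 36 of the 45 control UMIs, and 0.45 without control mouse 1.

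Hbegf gave 0.11 (SE 0.17, adjusted p = 0.999 in edgeR) in reactive astrocyte-like and 0.19 (0.31 and 0.957) in vascular smooth muscle-like cells. Over the 10 classes tested it was higher in ancrod mice in 6 and lower in 4. It ran from −0.80 in oligodendrocyte precursor-like (SE 0.48, adjusted p = 0.891 in edgeR) to 0.91 in fibroblast-like cells (0.42 and 0.415). Nrg1 gave 0.17 (SE 0.30, adjusted p = 0.999) in reactive astrocyte-like cells and 0.89 (0.44 and 0.878) in oligodendrocyte precursor-like cells. Without ancrod mouse 1, which had the lowest value of 81.9 CPM, the latter was 1.40 with an adjusted p of 0.0375, a fit with 2 ancrod mice and so below the minimum of 3 per group used elsewhere. With predicted doublets kept it was −0.26. Btc passed the filter on low counts in whole tissue and in 0 of the classes.

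Nrg1 was tested in 10 classes of the same mice, with log2 fold changes from 0.17 in reactive astrocyte-like to 2.06 in fibroblast-like cells. DESeq2 called 2 of them, named after their values were seen, and both had levels below the free RNA of their library in all 8 mice. Fibroblast-like cells had 5.04, 1.26, 4.88 and 2.99 CPM in control and 18.7, 15.4, 5.42 and 14.7 CPM in ancrod mice. Inflammatory macrophage-like cells had 2.92, 4.84, 6.76 and 3.51 CPM in control and 11.1, 11.9, 16.4 and 16.9 CPM in ancrod mice. In fibroblast-like cells DESeq2 gave a log2 fold change of 2.02 and an adjusted p of 0.0130, against 0.331 in edgeR. In inflammatory macrophage-like cells DESeq2 gave 1.59 and an adjusted p of 9e-06, against 0.23 in edgeR, and over all 10778 genes of that class edgeR called 0 (0%), 358 were below 0.05 unadjusted and DESeq2 called 1. Free RNA of the same libraries contained Nrg1 at 32.3 to 185 CPM in control and 95.3 to 509 CPM in ancrod mice. The part of free RNA in the class values was not tested.

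Genes that act with the receptors were read as fixed lists in whole tissue, where the median log2 fold change of all genes was −0.01. Of all 16275 genes tested there, 3239 were below 0.05 unadjusted, and DESeq2 called 1316, which stand beside the counts of each list. Of 7 sheddases and their regulators, edgeR called 0, 1 was below 0.05 unadjusted and DESeq2 called 1 (Adam10). Their median was −0.05, from −0.28 for Rhbdf2, an inactive rhomboid that guides ADAM17, to 0.76 for Adam12. Among 9 adaptors, which link receptors to RAS, edgeR called 0, 5 were below 0.05 unadjusted and DESeq2 called 2 (Gab1 and Sos1), with a median of −0.20 between −0.40 for Sos1 and 0.18 for Shc1. The 12 genes of the kinase cascade had 0 past the threshold, 3 unadjusted and 1 by DESeq2 (Pik3r1), with a median of −0.07 from −0.33 (Pik3r1) to 0.15 (Hras). Single mice carried some of these values, since Adam12 was 0.47 and Rhbdf2 −0.14 without control mouse 3 and Shc1 was 0.0966 without ancrod mouse 3.

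Negative regulators were read in the same way. None of 11 receptor inhibitors and ubiquitin ligases passed in edgeR (0 unadjusted, 0 by DESeq2), with a median of −0.07 from −0.39 for the phosphatase gene Ptprj to 0.40 for Lrig1, which lowers receptor levels. Of the 8 feedback inhibitors of ERK signalling 0 passed (0 unadjusted, 0 by DESeq2), with a median of 0.00 from −0.36 for Dusp4 to 0.27 for Spry2. Among 9 ERK target genes edgeR called 0, 2 were below 0.05 unadjusted and DESeq2 called 2 (Phlda1 and Fosl1), with a median of 0.08 from −0.26 for Myc to 0.87 for Fosl1. Without control mouse 3, Lrig1 was 0.20, Ptprj −0.21, Spry2 0.10 and Myc −0.17, and without control mouse 1 Lrig1 was 0.67 and Spry2 0.54.

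ERK target genes and feedback inhibitors were also read in the classes named for a member. In fibroblast-like cells, the class with most Egfr, edgeR called 0 of 9 target genes, 6 were below 0.05 unadjusted, beside 1558 of all 12770 genes of the class, and DESeq2 called 0. Their median log2 fold change was 0.44, beside −0.01 for all genes of the class, while the 8 feedback inhibitors had 0 unadjusted and a median of 0.11. In endothelial-like cells edgeR called 0 of 9 target genes, with 4 unadjusted (1154 of 12691 genes of the class) and 0 by DESeq2, and a median of 0.57 beside 0.01, and 1 of 8 feedback inhibitors unadjusted with a median of 0.41. In homeostatic astrocyte-like cells the median was 0.50 over 7 target genes (2 unadjusted, beside 544 of 11385 genes) and −0.03 over 5 feedback inhibitors (0 unadjusted), beside −0.0031 for all genes. In dendritic cell-like cells it was −0.78 over 7 target genes (3 unadjusted, beside 519 of 8577 genes) and 0.11 over 4 feedback inhibitors (1 unadjusted), beside −0.0034 for all genes. The median of target genes lay between −0.09 (reactive astrocyte-like) and 0.05 (oligodendrocyte precursor-like) in these and in microglia-like, T cell-like and vascular smooth muscle-like cells, and that of feedback inhibitors between 0.0070 (microglia-like) and 0.24 (oligodendrocyte precursor-like), with 0 or 1 gene of each list unadjusted. Over the 9 classes edgeR and DESeq2 called 0 genes of either list.

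Other ligands of the family were Egf, Epgn, Nrg2, Nrg3 and Nrg4, of which 4 could be tested in whole tissue. None passed in edgeR (1 unadjusted, 0 by DESeq2), with log2 fold changes from −0.19 for Egf (−0.30 to −0.0470 when 1 mouse was left out) to 1.55 for Nrg3 (0.67 without ancrod mouse 4 and up to 1.88). Nrg3, a ligand of ERBB4, averaged 5943 CPM in neuron-like cells (4439 to 7432) and 402 CPM in oligodendrocyte precursor-like cells, and Nrg2 averaged 156 CPM in neuron-like cells. Nrg4 was highest in inflammatory macrophage-like cells (10.9 CPM), and Egf reached 6.88 CPM in homeostatic astrocyte-like cells. Epgn had 27 UMIs in all kept droplets.

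Genes whose level followed a member most closely over 16 classes were listed by Pearson r of log2(CPM + 1) among 13520 genes, as a description in which classes share libraries and depth. For Egfr they were Tsku (0.93), Tmem53 (0.90) and Fgfr1 (0.90), and for Erbb2 they were Yap1 (0.97), Gulp1 (0.97) and Osmr (0.96). Erbb3 was closest to A930009A15Rik (0.87), Npy (0.85) and Irx1 (0.85), and Erbb4 to Tmem196 (0.98), Pak3 (0.98) and Dusp26 (0.97). Hbegf was closest to Pnkd (0.90), Lrrc8a (0.89) and Fzd8 (0.89), Tgfa to Adgrg1 (0.84), Jam2 (0.84) and Pla2g6 (0.80), and Areg to Grap2 (0.93), Cdh1 (0.91) and Pkp3 (0.91). Ereg was closest to Mfap4 (0.96), Cdhr1 (0.95) and Lrrc15 (0.95), Btc to 2810459M11Rik (0.97), Usp51 (0.97) and Car8 (0.97), and Nrg1 to Cacna1b (0.94), Celf3 (0.94) and Gprin1 (0.94). The highest class mean was 2.37 CPM for Ereg and 3.00 CPM for Btc, so their r rests on low levels. Neuroblast-like cells, which were high in Erbb4, were not among the 16 classes.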

How the data were processed

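The authors deposited, per library, a matrix of raw UMI counts for all barcodes, which the submitters' processing notes tie to Cell Ranger 7.1.0, STAR and GRCm39 (mm39), without normalization or removal of empty droplets. Libraries were 10x Chromium 3′, and reads in exons and introns were counted per the methods of the study. Droplets with at least 2000 UMIs and less than 20% mitochondrial UMIs were kept. The most doublet-like droplets were removed at 0.8% per 1000 cells. Clustering used 20 principal components, 20 neighbours and the Leiden method at resolution 2, without the member, pathway and mitochondrial genes. Clusters took "X-like" names from at least 3 marker genes detected in 10% of cells, and the score margin of 0.05 was set after the clusters were seen. Astrocyte-like clusters were called reactive or homeostatic by the higher score, each score being the mean scaled level of that state's markers.

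UMIs were summed per mouse and class (at least 10 cells, at least 3 mice per group) and tested in edgeR 4.0.16 (R 4.3.3; filterByExpr, TMM, estimateDisp, glmQLFit and glmQLFTest), with DESeq2 1.42.0 as an alternative, and class shares with an exact permutation test over 70 arrangements. Apart from batch, nothing in the labels ties samples across groups. Standard errors are the log2 fold change divided by the square root of the F statistic. Members, lists and tests were chosen with earlier results of these data known. Every member was tested in whole tissue and, of the 2 testable classes with its highest mean CPM, in those where it passed filterByExpr (not Erbb3 in T cell-like, Erbb4 in vascular smooth muscle-like, Ereg in reactive astrocyte-like and Btc in both), and pathway genes were named as the highest and lowest of each list. On simulated whole-tissue counts of 16275 genes, 0% of 1.5-fold, 57.0% of 2-fold and 90.0% of 4-fold changes were recovered. On simulated fibroblast-like counts of 12770 genes these were 14.0%, 72.0% and 93.5%. At most 6.67% of the calls were false. Genes were drawn independently of each other, so shifts that many genes share through cell makeup were not simulated. P-values measure the spread between mice. The single gene called in fibroblast-like cells, which is not a member, and the leading genes of T cell-like clusters are not reported here.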

Additional observations from a re-analysis of the deposited data

Results flagged for a closer look

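In groups of 4 mice, 1 mouse was marked when its gap to the nearest of the others was too large a part of the group's range by Dixon's test at the 95% level, which chance does in about 1 of 20 groups. Of 73 groups examined, 11 were marked. In whole tissue these were Erbb4 in ancrod mouse 1 (45.2 CPM, others 9.92 to 15.2), Btc in ancrod mouse 2 (0.879 CPM, others 0.229 to 0.339) and Nrg1 in ancrod mouse 4 (197 CPM, others 54.0 to 63.9). The share of neuron-like cells was also far out in ancrod mouse 4 (3.55% of cells, others 0.639% to 1.07%).

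In fibroblast-like cells, Egfr stood apart in control mouse 3 (634 CPM, others 393 to 413) and Ereg in control mouse 2 (5.05 CPM, others 0 to 0.654). In oligodendrocyte precursor-like cells, Erbb3 stood apart in control mouse 2 (49.2 CPM, others 24.6 to 25.8) and Btc in control mouse 3 (8.21 CPM, others 0). In T cell-like cells, control mouse 3 was highest for Erbb3 (11.6 CPM, others 0 to 1.84) and for Areg (114 CPM, others 0 to 12.9). Ereg in reactive astrocyte-like cells was seen in control mouse 4 alone among control mice (0.353 CPM, others 0). Where all others are 0, any value is marked, as for this group and for Btc in oligodendrocyte precursor-like cells. The stated rate of chance marks does not hold for such groups, and nothing is drawn from them. Over all mice these classes held only 21 Ereg and 4 Btc UMIs.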

How the results depend on the processing

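Of 725 values of single genes recomputed under other settings, 695 kept their direction and 30 reversed. The fall of Tgfa in whole tissue kept its direction and size in each, and its adjusted p was below 0.05 with DESeq2 and with batch as a covariate (0.0459), but 0.0555 without the count filter and 0.0545 with 5% free RNA subtracted. The counts of genes past the threshold changed with DESeq2, to 1316 in whole tissue, 60 in fibroblast-like, 24 in endothelial-like, 10 in dendritic cell-like, 3 each in homeostatic astrocyte-like, reactive astrocyte-like and oligodendrocyte precursor-like and 2 in microglia-like cells. Without the filter they were 0 in whole tissue, 2 in dendritic cell-like, 46 in oligodendrocyte precursor-like, 3 in T cell-like and 23 in vascular smooth muscle-like cells. Batch 1 alone gave 0 in whole tissue and in microglia-like, 3 in fibroblast-like, 4 in homeostatic astrocyte-like and 2 in oligodendrocyte precursor-like cells. With under 10% mitochondrial UMIs the count was 1 in whole tissue, in oligodendrocyte precursor-like and in reactive astrocyte-like cells and 0 in microglia-like cells. Subtracting free RNA gave 0 in whole tissue and in microglia-like cells, as did batch as a covariate and at least 5000 UMIs in microglia-like cells. Depth limits the rare members, since Areg, Ereg and Btc rest on 1753, 341 and 267 UMIs. The cause of these changes was not tested.

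Replicate numbers are shared by the groups, but the deviations of same-numbered mice correlated at −0.434 to 0.143 and only 1 of 4 control mice correlated best with its own number, so the numbers were not used as pairs. With the replicate number as a block the counts were 0 in whole tissue, fibroblast-like and microglia-like, 1 in endothelial-like, T cell-like and vascular smooth muscle-like and 2 in oligodendrocyte precursor-like cells, and Tgfa in whole tissue had an adjusted p of 0.318.

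Log2 fold changes that reversed in batch 1 alone were those of whole-tissue Erbb3 (0.13), Erbb4 (0.0200) and Hbegf (−0.12), Areg in dendritic cell-like (0.14) and T cell-like cells (−0.86) and Erbb4 in oligodendrocyte precursor-like cells (−0.0706). Erbb2 in homeostatic astrocyte-like cells was 0.0483 at 5000 UMIs and 0.0152 with doublets kept, which also turned Erbb3, Erbb4 and Nrg1 in oligodendrocyte precursor-like cells (−0.25, −0.25 and −0.26). Nrg1 in reactive astrocyte-like cells was −0.0282 with free RNA subtracted. The T cell-like share difference (percentage points) was 0.0398 at 5000 UMIs, 0.0255 with under 10% mitochondrial UMIs and 0.0661 in batch 1, and the oligodendrocyte precursor-like one was 0.0887 with doublets kept.

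Leaving out 1 mouse at a time gave 0 to 1 genes in whole tissue and T cell-like, 1 to 3 in fibroblast-like, 0 to 4 in oligodendrocyte precursor-like and vascular smooth muscle-like and 0 in microglia-like cells. Log2 fold changes then ranged from 0.73 to 1.74 for Btc, 1.90 to 3.88 for Ereg, 0.44 to 0.95 for Egfr, 0.83 to 1.56 for Areg, 0.89 to 1.91 for Nrg1, −0.17 to 0.0850 for Erbb3, −0.88 to 0.0927 for Erbb4 and −0.0321 to 0.20 for Hbegf in whole tissue, −0.57 to 2.29 and −0.94 to 0.00114 for Areg in T cell-like and dendritic cell-like cells, −0.17 to 0.0479 for Erbb2 in homeostatic astrocyte-like cells, −0.0630 to 0.44 for Erbb3 and −0.0128 to 0.27 for Erbb4 in oligodendrocyte precursor-like cells, −0.0227 to 0.24 for Hbegf and −0.17 to 0.47 for Nrg1 in reactive astrocyte-like cells, −0.14 to 0.41 for Hbegf in vascular smooth muscle-like cells and −0.0795 to 0.00651 for Tgfa in endothelial-like cells. Share differences (ancrod minus control, percentage points) ranged from −11.7 to −8.36 for endothelial-like, 3.15 to 6.04 for fibroblast-like, −9.09 to −4.13 for microglia-like, 0.520 to 1.49 for neuron-like, 2.16 to 4.59 for reactive astrocyte-like, −0.104 to 0.0859 for T cell-like and −0.0474 to 0.0707 for oligodendrocyte precursor-like cells.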
